A study of Homo sapiens with 8 samples.

Results

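The ERBB receptors, their ligands and the receptors MET and AXL were described in the human PDA (pancreatic ductal adenocarcinoma) cell line SUIT2. The 10 genes were chosen by name: the receptors *EGFR*, *ERBB2* and *ERBB3*, the ligands *AREG*, *EREG*, *TGFA*, *HBEGF* and *BTC*, and *MET* and *AXL*. Each symbol was matched to its NCBI gene number among the 25702 identifiers of the count tables, and all 10 were found and passed the filter on low counts. RNA-seq was performed on 8 libraries of SUIT2 cells that had received shRNAs. Of these, 4 were labelled with a scramble shRNA (shScr), 2 with a first *EN1* shRNA (shEN1 #1) and 2 with a second *EN1* shRNA (shEN1 #2), so every library carried an shRNA and none was labelled as untransduced. All came from 1 established cell line of pancreatic origin labelled epithelial, and the labels give neither a time after transduction nor whether replicates were separate cultures. The p-values therefore measure the spread between these libraries, which may be technical.

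ERBB receptors are tyrosine kinases that pair on the cell surface when an EGF-like ligand binds, and they signal through adaptors such as GRB2 and SHC1 to the ERK and PI3K pathways. Most of the ligands are made as membrane-anchored precursors that are released by metalloproteases such as ADAM17 and ADAM10. EGFR signalling is known to act in the formation of pancreatic tumors, while MET, the receptor of hepatocyte growth factor, and AXL, a TAM family receptor that binds GAS6, are receptor tyrosine kinases with roles in invasion and in the response to EGFR inhibitors.

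The libraries held between 33423590 and 37810604 counts, and none were identical. *EN1* (NCBI gene number 2019), the target of the shRNAs, had 4.10, 4.50, 4.93 and 2.51 CPM (the usual count unit relative to library size, after TMM normalization) in shScr replicates 1 to 4, 5.77 and 5.41 CPM in shEN1 #1 and 1.35 and 6.70 CPM in shEN1 #2, each named here and throughout by its label. In 3 of the 4 shEN1 libraries it exceeded the mean of shScr (4.01 ± 1.06 against 4.81 ± 2.37 CPM, SD, n = 4; exact two-sided permutation test, p = 0.543, where the smallest possible p is 0.0286). As the targeted gene goes against the labels, a direction between groups is only a direction between labels. On the first principal component of log2 CPM, with 50.4% of the variance, shScr replicate 4 (48.6) and shEN1 #2 replicate 1 (49.9) stood apart from the other 6 (-21.5 to -9.47), and comparisons are therefore given with and without them. The second component (17.9%) set shScr replicate 3 (-31.5) and shEN1 #1 replicate 1 (-22.6) against the remaining 6 (0.682 to 19.9). For 8 of the 8 libraries, the most similar other library by log2 CPM carried the opposite label. They formed the pairs shScr replicate 1 with shEN1 #1 replicate 2, shScr replicate 2 with shEN1 #2 replicate 2, shScr replicate 3 with shEN1 #1 replicate 1, and shScr replicate 4 with shEN1 #2 replicate 1. The labelled cell type was checked by its markers. The epithelial markers *EPCAM*, *KRT7*, *KRT8*, *KRT18*, *KRT19* and *CDH1* summed to 11691 to 15904 CPM in the libraries labelled shScr and to 11436 to 18541 CPM in those labelled shEN1.

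The regions just upstream of *AREG*, *EREG*, *HBEGF* and *AXL* are shown because *AREG* and *EREG* had their highest and lowest libraries in common, while *HBEGF* and *AXL* were highest where *EGFR*, *ERBB3*, *TGFA* and *MET* were lowest. Each run is 250 bases upstream of a RefSeq start (GRCh38.p14), found without mismatch in GRCh37 and written 5′ to 3′ on the strand of the gene. The positions in GRCh37 are chr4:75310603-75310852 on the plus strand for *AREG*, chr4:75230612-75230861 on the plus strand for *EREG*, chr5:139726189-139726438 on the minus strand for *HBEGF* and chr19:41724878-41725127 on the plus strand for *AXL*. Capitals mark matches to the searched motifs.
AREG: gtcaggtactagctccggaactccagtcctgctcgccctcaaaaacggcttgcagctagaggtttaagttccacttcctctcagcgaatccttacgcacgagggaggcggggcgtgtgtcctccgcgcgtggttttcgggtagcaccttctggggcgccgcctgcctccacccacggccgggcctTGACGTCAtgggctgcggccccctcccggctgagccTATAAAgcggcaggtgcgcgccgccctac
EREG: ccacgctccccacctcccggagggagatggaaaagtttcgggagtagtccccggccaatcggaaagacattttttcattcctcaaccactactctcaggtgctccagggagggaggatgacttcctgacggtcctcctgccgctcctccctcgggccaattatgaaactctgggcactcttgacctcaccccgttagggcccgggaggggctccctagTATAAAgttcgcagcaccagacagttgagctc
HBEGF: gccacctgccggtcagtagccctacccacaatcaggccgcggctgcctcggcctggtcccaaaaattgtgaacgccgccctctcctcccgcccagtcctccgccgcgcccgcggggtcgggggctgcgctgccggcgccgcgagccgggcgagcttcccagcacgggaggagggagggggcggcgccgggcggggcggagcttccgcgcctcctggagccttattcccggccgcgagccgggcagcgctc
AXL: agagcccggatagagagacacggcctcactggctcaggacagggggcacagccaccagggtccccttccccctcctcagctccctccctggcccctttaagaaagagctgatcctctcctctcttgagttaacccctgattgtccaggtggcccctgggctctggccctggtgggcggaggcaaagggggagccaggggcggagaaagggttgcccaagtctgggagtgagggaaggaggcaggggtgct

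The motifs, searched on both strands, were the AP-1 site TGACTCA, the cAMP response element TGACGTCA, which reads the same on both strands, and the TATA box TATAAA. They do not overlap each other in these runs. The *AREG* window held the cAMP response element and a TATA box, and the *EREG* window held a TATA box. The windows of *HBEGF* and *AXL* held none of the 3 motifs. Among 35116 windows of the same length, 4.20% held the AP-1 site, 1.65% the cAMP response element and 10.7% the TATA box. Windows were found for 9 of the 10 genes (all but *ERBB3*), and of their 12 distinct windows 1 held the AP-1 site, 1 the cAMP response element and 3 the TATA box. A match is a string of letters in a window and was not tested as a binding site.

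Among the ERBB receptors, *EGFR* was the most abundant in every library, and the libraries with the same label differed more than the labels did. *EGFR* (NCBI gene number 1956; chr7:55086710-55279321, plus strand of GRCh37) encodes the receptor of EGF, amphiregulin and TGF-alpha. Its level was 375, 487, 492 and 286 CPM across shScr replicates 1 to 4, 396 and 474 CPM for shEN1 #1 and 289 and 525 CPM for shEN1 #2. The lowest values were in shScr replicate 4 and shEN1 #2 replicate 1, and the ranges of the labels overlapped. The means were 409.8 ± 98.4 CPM for shScr and 421 ± 103 CPM for shEN1 (SD, n = 4), with a log2 fold change of 0.04 (95% confidence interval -0.44 to 0.52, adjusted p = 1.00 by quasi-likelihood in edgeR).

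*ERBB2* (NCBI gene number 2064; chr17:37844167-37886679, plus strand) encodes the receptor without a known soluble ligand that pairs with the other family members. The shScr replicates measured 79.0, 111, 128 and 110.2 CPM in order, the shEN1 #1 replicates 85.5 and 84.4 CPM and the shEN1 #2 replicates 96.0 and 113 CPM. The lowest and the highest library, 1.61 times apart, were both labelled shScr (replicates 1 and 3), and the ranges of the labels overlapped. The means were 107 ± 20.3 CPM for shScr and 94.7 ± 13.2 CPM for shEN1 (SD, n = 4), with a log2 fold change of -0.18 (95% confidence interval -0.52 to 0.17, edgeR's adjusted p = 1.00). Unlike the other receptors, *ERBB2* was near the middle of its range in the libraries that stood apart.

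*ERBB3* (NCBI gene number 2065; chr12:56470583-56497289, plus strand) encodes the neuregulin receptor with little kinase activity of its own, which recruits PI3K. In order of replicate, shScr gave 55.1, 91.8, 132 and 42.6 CPM, shEN1 #1 gave 92.3 and 64.2 CPM and shEN1 #2 gave 33.5 and 80.2 CPM. The library labelled shScr replicate 3 was the highest and shEN1 #2 replicate 1 the lowest, a span of 3.95 times. The means were 80.5 ± 40.5 CPM for shScr and 67.6 ± 25.4 CPM for shEN1 (SD, n = 4), with a log2 fold change of -0.25 (95% confidence interval -1.14 to 0.63, edgeR's adjusted p = 1.00). The sign turned, to 0.10, without the library labelled shScr replicate 3.

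**Figure D1:**
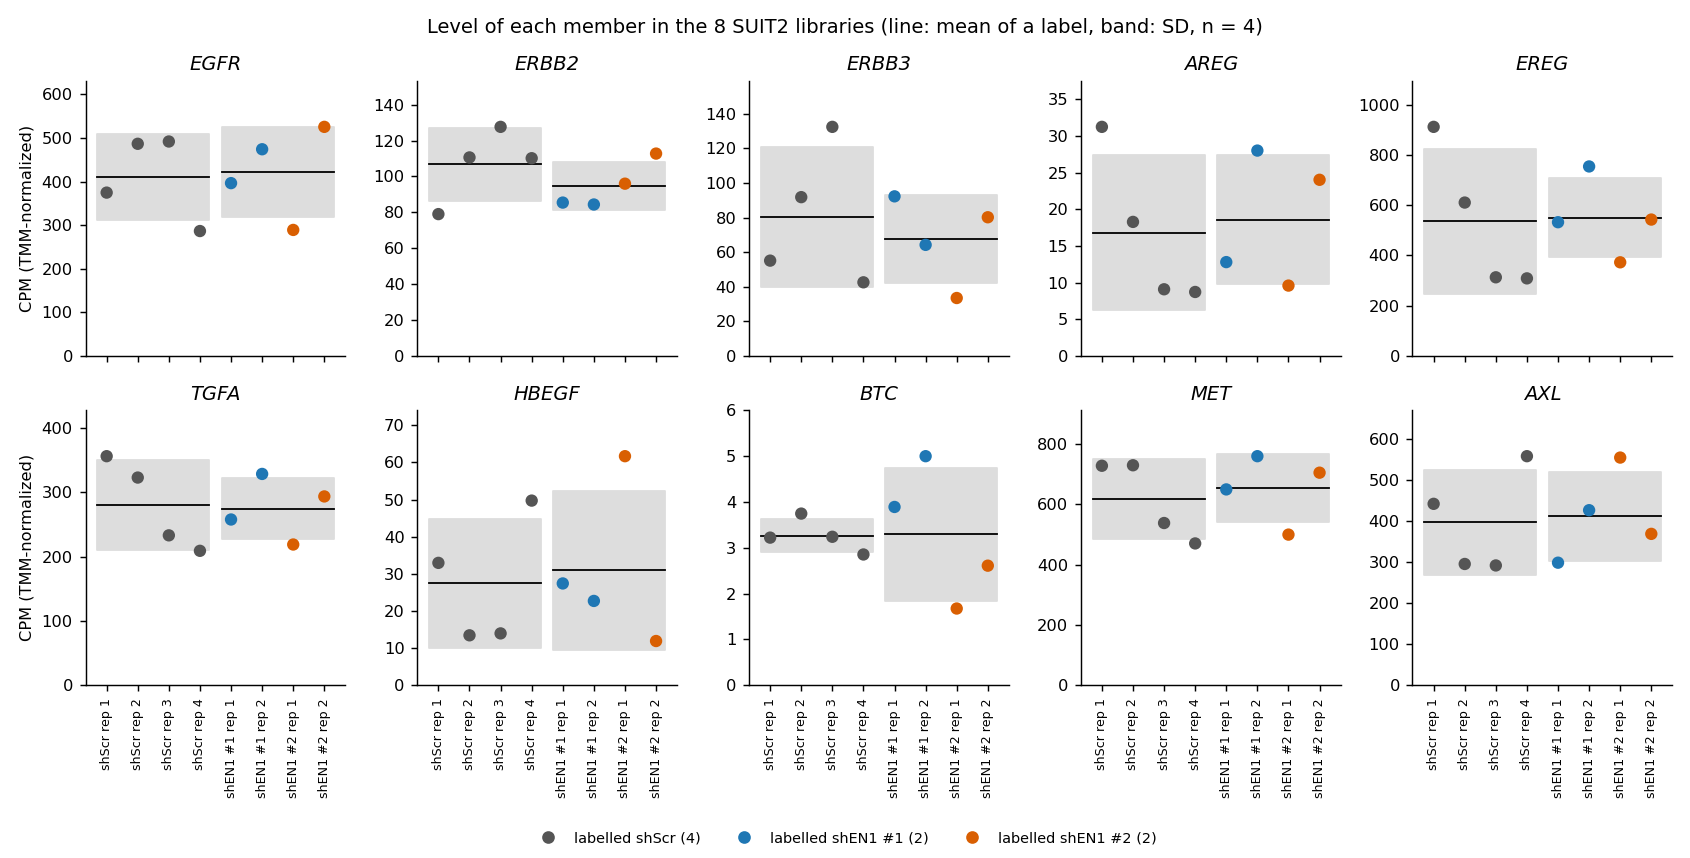
Level of each of the 10 genes (y axis, TMM-normalized CPM, from 0) in the 8 libraries (x axis, by label and replicate), with points colored by label, a line at the mean of the 4 libraries of a label (both constructs pooled) and a band of ± SD. For every gene the range of the shEN1 libraries, both constructs pooled, overlaps that of the shScr libraries. For *BTC* the points of shEN1 #1 lie above and those of shEN1 #2 below all shScr points. *HBEGF* and *AXL* peak in shScr replicate 4 and shEN1 #2 replicate 1, where *EGFR*, *ERBB3*, *TGFA* and *MET* are lowest.

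Of the ligands, *EREG* and *TGFA* made up most of the transcripts. *EREG* (NCBI gene number 2069; chr4:75230862-75254466, plus strand) encodes epiregulin, which binds EGFR and ERBB4. Values of 912, 610.5, 313 and 309 CPM were measured for shScr, 532 and 754 CPM for shEN1 #1 and 373 and 543 CPM for shEN1 #2. The libraries labelled shScr held both the highest value, in replicate 1, and the 2 lowest, in replicates 3 and 4, so the shEN1 libraries all lay inside the shScr range. The means were 536 ± 288 CPM and 550.5 ± 156 CPM (SD, n = 4), with a log2 fold change of 0.04 (95% confidence interval -0.77 to 0.85, edgeR's adjusted p = 1.00). Without the libraries that stood apart it was -0.0068.

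*AREG* (NCBI gene number 374; chr4:75310853-75320722, plus strand) encodes amphiregulin, an EGFR ligand, and lies next to *EREG* on chromosome 4. Its level was 31.2, 18.3, 9.09 and 8.73 CPM across shScr replicates 1 to 4, 12.8 and 28.003 CPM for shEN1 #1 and 9.60 and 24.02 CPM for shEN1 #2. As for *EREG*, the highest values were in shScr replicate 1 and shEN1 #1 replicate 2, and the lowest in shScr replicates 4 and 3. The means were 16.8 ± 10.6 CPM and 18.6 ± 8.80 CPM (SD, n = 4), with a log2 fold change of 0.14 (95% confidence interval -0.92 to 1.21, edgeR's adjusted p = 1.00). The level of *AREG* is uncertain, because GRCh37 holds a second copy of the gene, *AREGB* (chr4:75480629-75490486), in which 806 of 838 windows of 150 bases from *AREG* exons (96.2%) recur exactly, so that reads could have been split or left out in the counting. Reads assigned to the copy would be missing from the level, the share and the rank of *AREG* given here, and how many were was not tested. The upstream window of *AREG* shown above also recurs exactly before this copy.

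*TGFA* (NCBI gene number 7039; chr2:70674416-70781325, minus strand) encodes TGF-alpha, an EGFR ligand. The shScr replicates measured 356, 323, 233 and 209 CPM in order, the shEN1 #1 replicates 258 and 329 CPM and the shEN1 #2 replicates 219 and 294 CPM. It was lowest in shScr replicate 4 and shEN1 #2 replicate 1, as were *EGFR* and *MET*, and the labels overlapped. The means were 280.3 ± 70.4 CPM and 275 ± 47.1 CPM (SD, n = 4), with a log2 fold change of -0.03 (95% confidence interval -0.45 to 0.39, edgeR's adjusted p = 1.00).

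*HBEGF* (NCBI gene number 1839; chr5:139712428-139726188, minus strand) encodes heparin-binding EGF-like growth factor, a ligand of EGFR and ERBB4. In order of replicate, shScr gave 32.95, 13.5, 14.0 and 49.7 CPM, shEN1 #1 gave 27.4 and 22.7 CPM and shEN1 #2 gave 61.7 and 11.9 CPM. The replicates of shEN1 #2 were the highest and the lowest of all 8 libraries, 5.17 times apart, the widest span of the 10 genes. The means were 27.5 ± 17.4 CPM and 30.9 ± 21.5 CPM (SD, n = 4), with a log2 fold change of 0.17 (95% confidence interval -1.08 to 1.42, edgeR's adjusted p = 1.00), and of 0.04 without the libraries that stood apart.

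*BTC* (NCBI gene number 685; chr4:75669969-75719733, minus strand) encodes betacellulin, which binds EGFR and ERBB4, and it was the least abundant of the 10 genes. Values of 3.22, 3.75, 3.24 and 2.86 CPM were measured for shScr, 3.89 and 5.001 CPM for shEN1 #1 and 1.68 and 2.61 CPM for shEN1 #2, from 66 to 170 counts per library. The libraries labelled shEN1 #1 were above all 4 libraries labelled shScr and those labelled shEN1 #2 were below them. *BTC* was the 1 gene of the 10 without overlap in either comparison, where 5.16% of all tested genes did not overlap for shEN1 #1 and 4.03% for shEN1 #2. The pooled mean of 3.29 ± 1.46 CPM for shEN1 was close to the 3.27 ± 0.367 CPM for shScr (SD, n = 4). The pooled log2 fold change was 0.01 (95% confidence interval -0.73 to 0.75, edgeR's adjusted p = 1.00).

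*MET* and *AXL* were both abundant, and they were at opposite ends of their ranges in the libraries that stood apart. *MET* (NCBI gene number 4233; chr7:116312250-116438431, plus strand) measured 728, 729.7, 538 and 470.5 CPM across shScr replicates 1 to 4, 649.6 and 759.9 CPM for shEN1 #1 and 499.8 and 705 CPM for shEN1 #2. The lowest were again shScr replicate 4 and shEN1 #2 replicate 1. The means were 617 ± 133 CPM and 654 ± 112 CPM (SD, n = 4), with a log2 fold change of 0.08 (95% confidence interval -0.31 to 0.48, edgeR's adjusted p = 1.00).

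*AXL* (NCBI gene number 558; chr19:41725128-41767671, plus strand) measured 442, 296, 292 and 559 CPM across shScr replicates 1 to 4, 299 and 427 CPM for shEN1 #1 and 555 and 369 CPM for shEN1 #2. It was highest in shScr replicate 4 and shEN1 #2 replicate 1, which lay above the 292 to 442 CPM of the other 6. The means were 397 ± 128 CPM and 413 ± 109 CPM (SD, n = 4), with a log2 fold change of 0.05 (95% confidence interval -0.50 to 0.61, edgeR's adjusted p = 1.00).

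Between the libraries labelled shEN1 and shScr, 0 of the 10 reached an adjusted p below 0.05 in edgeR, and 0 an unadjusted one. Over all 14333 genes tested, 0 genes (0%) passed the adjusted threshold in edgeR and 44 (0.307%) the unadjusted one, while DESeq2 called 2 genes, neither of them among the 10. Of the 10 genes, 7 were higher and 3 (*ERBB2*, *ERBB3* and *TGFA*) lower in the libraries labelled shEN1, with a median log2 fold change of 0.04, where 7006 of all tested genes were higher and 7327 lower, with a median of -0.0028. Leaving out shScr replicate 4 and shEN1 #2 replicate 1 gave log2 fold changes of 0.04 for *EGFR*, -0.17 for *ERBB2*, -0.24 for *ERBB3*, 0.14 for *AREG*, -0.05 for *TGFA*, 0.17 for *BTC*, 0.08 for *MET* and 0.09 for *AXL*, and 0 of the 10 genes were called. The confidence intervals show what these fits of the 8 libraries could not resolve. The fits did not use the pairs of most similar libraries, so the widths include differences between those pairs. A fit with these pairs as blocks was not made. The width was smallest for *ERBB2* and *MET* and largest for *HBEGF*, *AREG* and *ERBB3*.

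**Figure D2:**
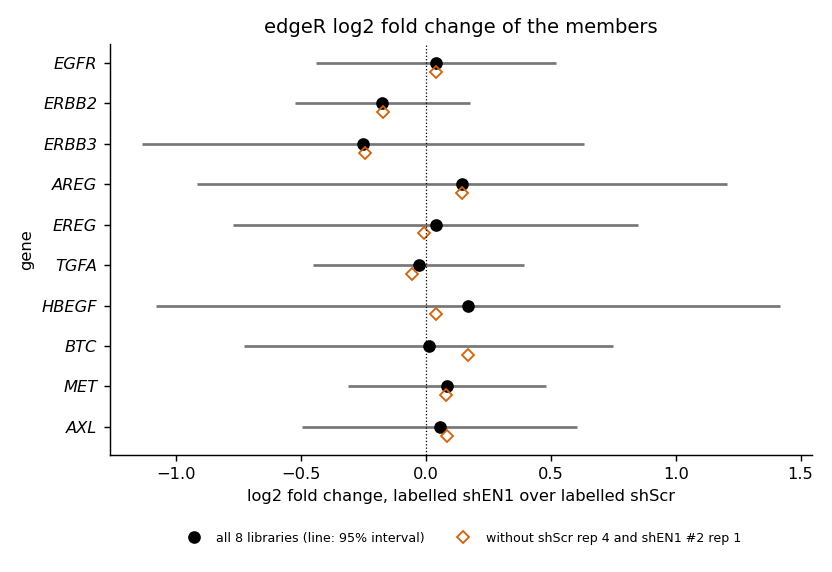
Log2 fold change of the 10 genes (x axis, libraries labelled shEN1 over those labelled shScr) from edgeR, with filled points and 95% confidence intervals for all 8 libraries (4 against 4) and open diamonds for the 6 libraries left without shScr replicate 4 and shEN1 #2 replicate 1. Every interval includes 0, from the narrow one of *ERBB2* (-0.52 to 0.17) to the wide one of *HBEGF* (-1.08 to 1.42).

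Each construct was set against the 4 shScr libraries in a fit of 3 groups, so that both comparisons share their controls and the 2 libraries of a construct borrow the spread of all groups. For shEN1 #1, 0 of the 10 genes passed either threshold (over all genes 0% at the adjusted and 0.656% at the unadjusted p). The log2 fold changes ran from -0.33 for *ERBB2* (95% confidence interval -0.76 to 0.09) to 0.44 for *BTC* (-0.26 to 1.15), with 6 genes higher and 4 lower. Without the libraries that stood apart these values were -0.32 for *ERBB2* and 0.38 for *BTC*, and the sign turned for 4 genes (*EGFR*, *TGFA*, *HBEGF* and *AXL*). For shEN1 #2, 0 of the 10 genes passed either threshold (0% and 0.300% over all genes). The values ran from -0.61 for *BTC* (-1.35 to 0.13) to 0.42 for *HBEGF* (-1.21 to 2.05), with 2 genes higher and 8 lower. The value of *HBEGF* rested on the library labelled shEN1 #2 replicate 1, as without the libraries that stood apart it was -0.76 (standard error 0.53), and that of *BTC* was -0.39. The count of 8 lower genes also rested on these libraries, as without them 5 genes were higher and 5 lower, with another sign for *EGFR*, *ERBB2*, *AREG*, *HBEGF* and *MET*.

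The constructs were also compared with each other. The libraries of the constructs did not overlap for 2 of the 10 genes, *BTC* (lower for shEN1 #2) and *ERBB2* (higher for shEN1 #2), where 25.5% of all tested genes did not overlap. Between shEN1 #2 and shEN1 #1, 0 of the 10 genes passed the adjusted threshold (0% over all genes) and 1, *BTC*, passed the unadjusted one (1.07% over all genes). The log2 fold change of *BTC* was -1.05 (95% confidence interval -1.90 to -0.21, adjusted p = 1.00 in edgeR), which did not pass after adjustment. Without shScr replicate 4 and shEN1 #2 replicate 1 the value was -0.77 (standard error 0.47), where the 1 library left of shEN1 #2 was assumed to vary like the others. In the same comparison, *HBEGF* went from 0.56 with all libraries to -1.07 without those 2, and the sign turned for 6 of the 10 genes.

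The order of the levels was set per length of the canonical transcript, as CPM per kb averaged over the 8 libraries. *EREG* was first (118 ± 46.5 CPM per kb, SD, n = 8), followed by *MET* (93.1 ± 16.9), *AXL* (85.8 ± 23.4) and *TGFA* (67.4 ± 13.5). *EREG* was above *MET* in 6 of 8 libraries, *MET* above *AXL* in 6 and *AXL* above *TGFA* in 7, so that these neighbours were not separated in every library. *EGFR* came next (41.9 ± 9.43 CPM per kb), below *TGFA* and above *ERBB2* (22.1 ± 3.75) in all 8 libraries. *ERBB2* was above *AREG* in 6 libraries, above *HBEGF* in 7 and above *ERBB3* in 8. *AREG* (14.4 ± 7.34), *ERBB3* (13.2 ± 5.71) and *HBEGF* (12.4 ± 7.71) could not be ordered, since *AREG* was above *ERBB3* in 4 libraries and *ERBB3* above *HBEGF* in 5. The place of *AREG* leaves out any reads assigned to its second copy and could be higher. *BTC* was last, at 1.24 ± 0.370 CPM per kb, below *HBEGF* in all 8.

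**Figure D3:**
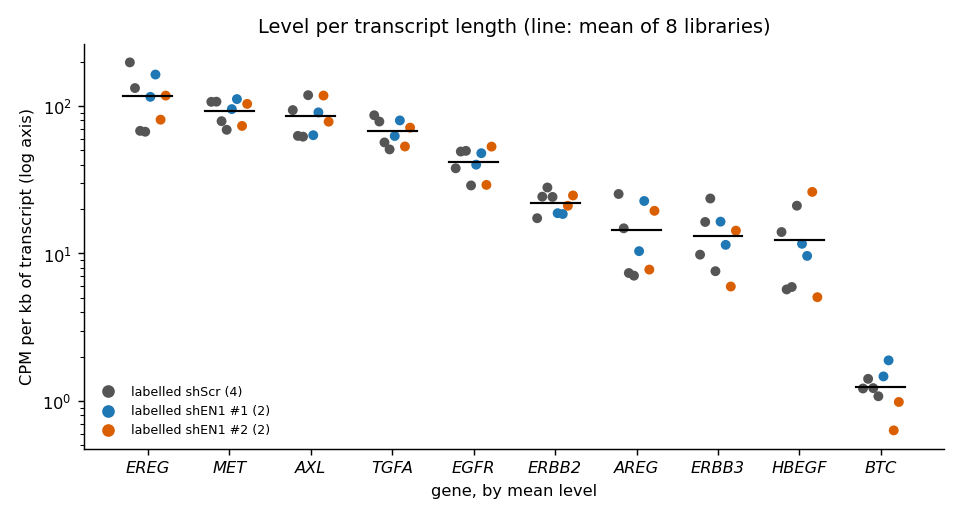
Level of each gene per kb of its canonical transcript (y axis, CPM per kb, log axis) in each library, with points colored by label and a line at the mean of the 8 libraries, in the order of the means. *EREG*, *MET*, *AXL* and *TGFA* overlap at the top, *AREG*, *ERBB3* and *HBEGF* overlap near 10 CPM per kb, and *BTC* lies an order of magnitude below them.

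Summed per kb, the 5 ligands ranged from 139 CPM per kb in the library labelled shScr replicate 3 to 325 in shScr replicate 1, and *EREG* held the largest share in every library, from 45.5% to 60.9%. *TGFA* held 26.7% to 40.7%, *AREG* 4.62% to 9.08% and *BTC* 0.374% to 0.879%. The share of *AREG* leaves out any reads assigned to its second copy. The share of *HBEGF* was 14.3% and 15.5% in shScr replicate 4 and shEN1 #2 replicate 1 and 2.36% to 5.77% in the other 6. Among the 3 receptors, *EGFR* held 47.7% to 61.5%, *ERBB2* 23.8% to 39.8% and *ERBB3* 10.6% to 23.3%. The 2 highest shares of *ERBB2*, 39.8% and 37.5%, were in the same pair of libraries, in which *EGFR* and *ERBB3* were low and the level of *ERBB2* itself was within the range of the other 6. In these bulk libraries, fewer cells of a kind and less RNA per cell cannot be told apart.

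**Figure D4:**
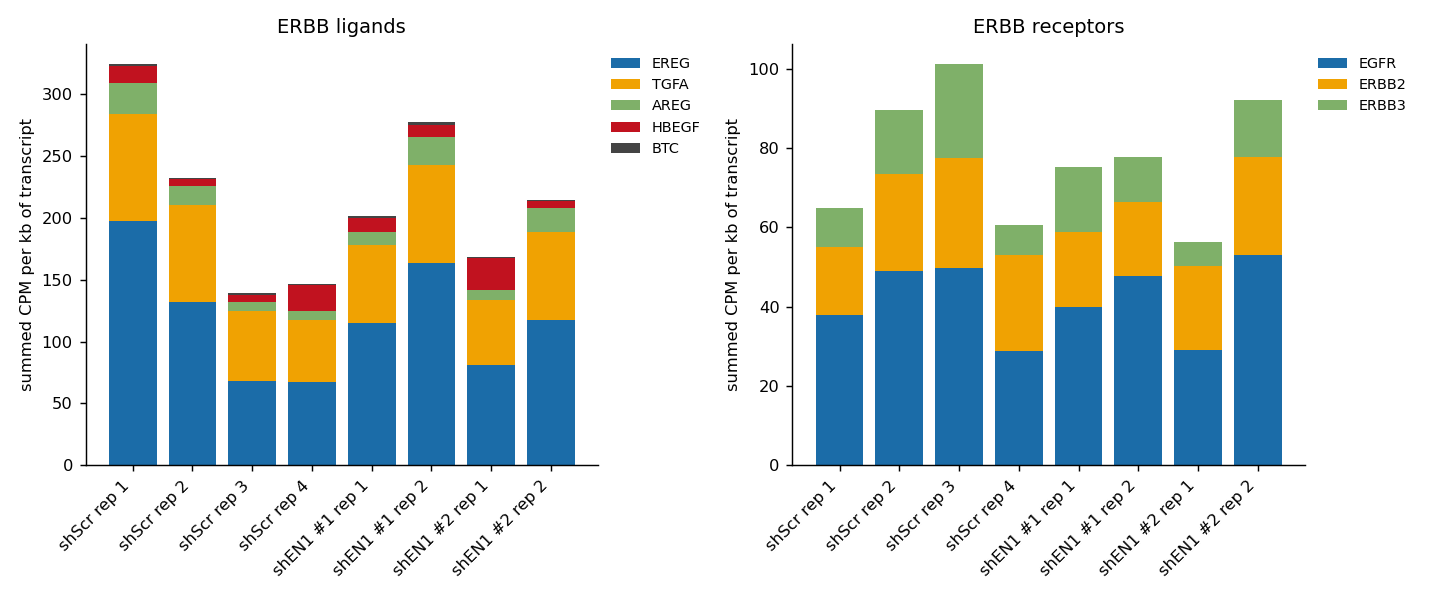
Summed level per kb of transcript (y axis, CPM per kb, from 0) of the 5 ERBB ligands (left) and the 3 ERBB receptors (right) in each library (x axis), stacked by gene. *EREG* and *EGFR* are the largest segments in every library, and the *HBEGF* segment is widest in shScr replicate 4 and shEN1 #2 replicate 1 (14.3% and 15.5% of the ligands).

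On median, the 10 genes spread more across the 8 libraries than all tested genes did, which was described and not tested. The median SD of log2(CPM + 0.5) was 0.39 for the 10 genes and 0.25 for all tested genes. An SD of at least 0.5 was reached by 4 of the 10, *ERBB3* (0.65), *AREG* (0.74), *EREG* (0.58) and *HBEGF* (0.87), and by 12.1% of all tested genes. The pair of shScr replicate 4 and shEN1 #2 replicate 1 held the 2 lowest or the 2 highest values of 6 of the 10 genes, which was also so for 38.1% of all tested genes. They were the 2 lowest for *EGFR*, *ERBB3*, *TGFA* and *MET* and the 2 highest for *HBEGF* and *AXL*. In the same pair of libraries *EPCAM* (234 and 241 CPM), *KRT7* (198 and 192 CPM), *KRT19* (400.1 and 321 CPM) and *CDH1* (124 and 103 CPM) were also below the other 6. *KRT8* (6483 and 6363 CPM) and *KRT18* (4252 and 4216 CPM) were within the range of the other 6. The part of these markers in the results was not tested.

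**Figure D5:**
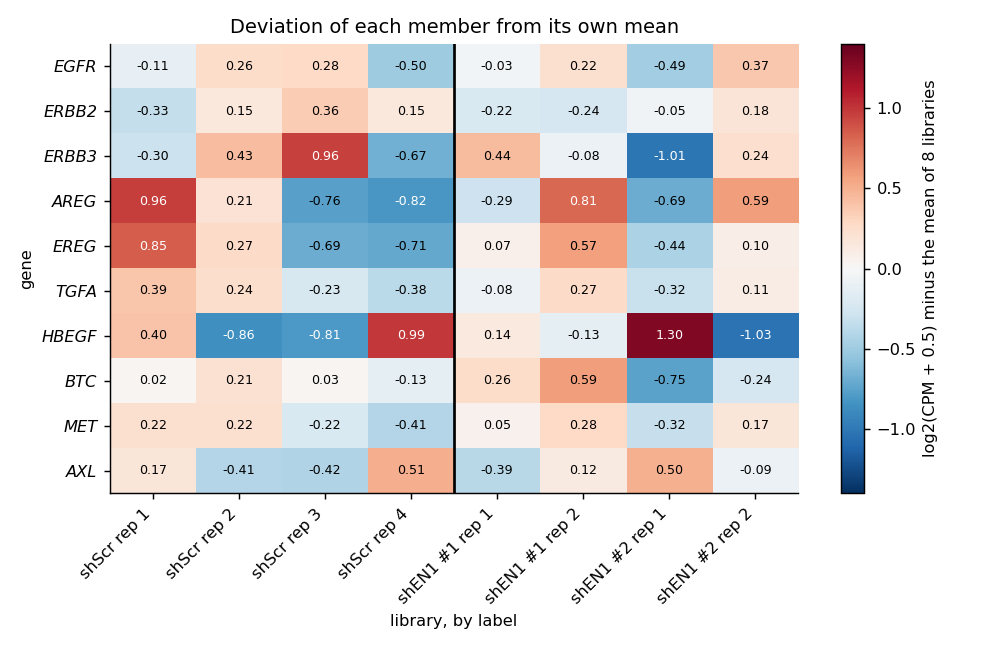
Deviation of each gene (rows) from its own mean over the 8 libraries (color and printed value, log2(CPM + 0.5)) in each library (columns, with a line between the labels). *EREG* and *AREG* share their high and low libraries, and in shScr replicate 4 and shEN1 #2 replicate 1 the deviations of *HBEGF* (0.99 and 1.30) have the opposite sign to those of *ERBB3* (-0.67 and -1.01).

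For the 4 genes with an SD of at least 0.5, the nearest genes were named by the root mean square difference of centred log2 values over the 8 libraries, as a description. Nearest to *EREG* were *LAMA3*, a laminin chain of epithelial basement membranes (0.14), *ANXA3*, an annexin (0.16), and *HRH1*, a histamine receptor (0.17). *LAMA3* was also nearest to *AREG* (0.18), ahead of *MMRN2* (0.20, mean of 1.28 CPM) and an identifier for which no symbol was found (727738, 0.21, mean of 12.9 CPM). Whether this identifier shares reads with *AREG* was not tested. Among all tested genes, *EREG* ranked 9 in nearness to *AREG* (0.26), while *AREG* ranked 32 in nearness to *EREG*. *ERBB3* was nearest to *LYPD3* (0.15), *TNNT1*, a troponin (0.15), and a further identifier without a symbol (100506912, 0.17). *HBEGF* was nearest to *CCN2*, a secreted matricellular protein (0.18), *GFRA3*, a receptor of the GDNF family (0.25), and *SLC46A3* (0.31). The mean of *GFRA3* was 0.523 CPM, close to the pseudocount of 0.5, so its pattern rests on low counts. Within the 10 genes the closest pair was *TGFA* and *MET*, at 0.08.

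The other genes of the pathway were counted in 7 lists, with the 2 most abundant genes of each named. Between the libraries labelled shEN1 and shScr, 0 of their tested members passed either the adjusted or the unadjusted threshold in edgeR. Over all tested genes 0% and 0.307% passed these thresholds, and 7006 genes were higher and 7327 lower. The counts of higher and lower genes in the lists were not tested against this split. Of the other ERBB receptors and ligands, 3 of 7 passed the filter on low counts (2 higher, 1 lower), all at low levels. The neuregulins *NRG2*, at 0.572 to 2.96 CPM, and *NRG1*, at 0.427 to 2.83 CPM, led them, and *EGF*, *EPGN*, *NRG3* and *NRG4* were not tested. *ERBB4*, the remaining receptor, was chosen after its values were seen and measured 4.51 and 4.32 CPM in shScr replicate 4 and shEN1 #2 replicate 1 and 0.0539 to 0.746 CPM in the other 6. In the axis of MET and the related receptor RON, 5 of 8 genes were tested (2 higher, 3 lower). *HGF*, which encodes the ligand of MET, was at 0 counts in every library. The abundant members were *SPINT2*, an inhibitor of the proteases that activate that ligand (331 to 562 CPM), and *ST14*, which encodes the protease matriptase (169.6 to 641 CPM). *ST14* was lowest where *MET* was lowest, with 193 and 169.6 CPM in the pair of libraries that stood apart, and its log2 fold change between the labels was -0.0040 (95% confidence interval -0.95 to 0.94). The other TAM receptors *MERTK* and *TYRO3* had 26.7 to 41.4 CPM and 27.9 to 42.0 CPM, and of the 4 TAM genes 1 was higher and 3 lower.

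Of the genes for ligand shedding, 2 were higher and 2 lower. The sheddase *ADAM10* had 74.3 to 143 CPM and *RHBDF1*, an inactive rhomboid that takes part in the traffic of ADAM17, 37.2 to 53.4 CPM. Of the 13 adaptors and effectors, 10 were higher and 3 lower, with *SHC1* (436 to 671 CPM) and the phosphatase *PTPN11* (211 to 283 CPM) the most abundant and a median log2 fold change of 0.04. Of the 10 receptor inhibitors and feedback genes, 7 were higher and 3 lower (median 0.03). *ERRFI1*, an inhibitor of EGFR, had 177.6 to 254 CPM and *SPRY4*, a feedback inhibitor of ERK signalling, 83.3 to 140.2 CPM. Of the 11 genes of the ERK output, 7 were higher and 4 lower (median 0.07). The AP-1 subunit *FOSL1* had 489 to 1084 CPM with a log2 fold change of 0.16 (95% confidence interval -0.35 to 0.67), and *EPHA2*, an ephrin receptor, had 415 to 895 CPM with one of 0.08 (-0.51 to 0.68). *EPHA2* was highest in the libraries labelled shEN1 #2 replicate 1 and shScr replicate 4, as *AXL* and *HBEGF* were.

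Markers of other cells were near 0 in both groups. The 6 fibroblast markers summed to 1.02 to 4.04 CPM in the libraries labelled shScr and to 1.17 to 2.86 CPM in those labelled shEN1, with *COL1A2*, *COL3A1*, *DCN* and *LUM* at 0 in every library. The 5 leukocyte markers summed to 0.404 to 1.03 and to 0.812 to 1.35 CPM, with *PTPRC* and *CD3E* at 0. The 4 endothelial markers summed to 0.316 to 0.602 and to 0.364 to 0.676 CPM, with *CDH5* and *KDR* at 0, and the 4 acinar markers to 0.373 to 1.13 and to 0.305 to 1.41 CPM, with *CPA1* and *PNLIP* at 0.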

How the data were processed

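RNA-seq libraries of the human PDA cell line SUIT2 were grouped by their labels (4 shScr, 2 shEN1 #1, 2 shEN1 #2). The deposited values are the authors' raw read counts per gene, made from paired-end reads of polyA-selected RNA with HISAT2 and featureCounts. The methods state hg19 for human samples, whereas the labels' processing notes list mm9. The annotation and the strand setting of the counting are not given in the sources used here, so overlapping and antisense genes could share reads. The identifiers are NCBI gene numbers, of which 23696 of 25702 were matched to a symbol through RefSeq, and the other 2006 held 0.214% to 0.257% of a library's counts. Gene positions and canonical transcript lengths were taken from GENCODE's annotation of GRCh37.

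Counts (33423590 to 37810604 per library, a ratio of 1.13) were filtered with filterByExpr (minimum count 10, 14333 genes tested), scaled with TMM factors (0.962 to 1.07) and compared by the robust quasi-likelihood test of edgeR 4.0.16 (R 4.3.3), with Benjamini-Hochberg adjustment over all tested genes and a threshold of 0.05. Logarithms of CPM used a pseudocount of 0.5. The pooled comparison set 4 against 4 libraries without covariates, and each construct was compared in a fit of 3 groups. Every pair of the 8 libraries differed by more than sampling noise (chi-square per gene of at least 10.9). The pooled test was run on simulated counts with independent libraries. Those counts lack the pairs of similar libraries found here, so that run cannot show how the tests behave on these data. Promoter windows were taken from RefSeq.

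The 10 genes, the lists and the markers were chosen with earlier results of these data known. Named were the 10 genes, *EN1*, the 2 most abundant genes of each list because none was called, and the 3 genes nearest to each of the 10 that had an SD of at least 0.5. The alternatives were DESeq2's size factors, library size only, DESeq2 1.42.0, a minimum of 10 counts in all libraries or no filter, a block on the replicate number, each library left out, leaving out the 2 libraries that stood apart, and 4 libraries only. Leaving out these 2 in the construct comparisons was added after seeing the data.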

Additional observations from a re-analysis of the deposited data

Results flagged for a closer look

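Among the 4 libraries labelled shEN1, a TMM factor of 1.07 was found for shEN1 #2 replicate 1, far from the range of 0.974 to 0.981 of its group. A factor of 1.06 was found for shScr replicate 4, against 0.962 to 1.00 for shScr replicates 1 to 3, which did not pass the same criterion. Of 26 groups of values, among them the levels of the 10 genes, only the factor of shEN1 #2 replicate 1 passed, and chance gives about 1.3. The levels of *HBEGF*, *AXL*, *EGFR*, *ERBB3*, *TGFA* and *MET* at the ends of their ranges in these libraries are given above, and their relation to the TMM factors was not tested.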

How the results depend on the processing

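In every alternative 0 of the 10 genes were called between the libraries labelled shEN1 and shScr. The count over all genes was 2 with DESeq2 (*VAMP7* and an identifier without a symbol), 1 without both libraries that stood apart, 1 with only shScr replicates 1 and 2 and the second replicates of both constructs (*VAMP7* in both), and 0 to 1 when single libraries were left out (*VAMP7* without shScr replicate 4). For shEN1 #1 it was 3 with DESeq2, 1 with no filter, 2 without both libraries that stood apart (added after seeing the data) and 0 to 1 with 1 library left out. It stayed at 0 for shEN1 #2 and between the constructs in the alternatives tried.

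Signs were kept for all 10 genes with DESeq2's size factors, with DESeq2, with no filter and with at least 10 counts in every library. With library size only, *BTC* was -0.0029. Without both libraries that stood apart, *EREG* was -0.0068. With only the 4 libraries named above, which leaves out the pairs that stood apart on the first and second components, *ERBB2* was 0.053, *EREG* -0.23 and *HBEGF* -0.42. The titles of the libraries name no pairing by replicate number. The deviations of same-numbered libraries from their group means correlated from -0.37 to 0.52. These values cannot decide on a pairing, because the 2 libraries of a construct deviate from their mean as mirror images. With the replicate number as a block, 1 gene was called, *VAMP7*, and the signs turned for *EGFR* (-0.046), *ERBB2* (0.012), *AREG* (-0.60), *EREG* (-0.50), *BTC* (-0.10) and *MET* (-0.17). In that fit shScr replicates 3 and 4 are without a partner. The cause of these changes was not tested.

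With each of the 8 libraries left out in turn, log2 fold changes spanned -0.10 to 0.18 for *EGFR*, -0.29 to -0.08 for *ERBB2*, -0.46 to 0.10 for *ERBB3*, -0.13 to 0.63 for *AREG*, -0.15 to 0.42 for *EREG*, -0.15 to 0.11 for *TGFA*, -0.41 to 0.62 for *HBEGF*, -0.26 to 0.23 for *BTC*, -0.025 to 0.19 for *MET* and -0.13 to 0.26 for *AXL*. Of these 80 values, 26 had another sign than the value from 8 libraries. *BTC* had the fewest counts of the 10 genes, 66 to 170 per library.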
